A study of Mus musculus with 3 samples.

Results

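The TCRα repertoire of CD73+ regulatory T cells (Treg) of the thymus was compared with that of CD4 single-positive thymocytes without Treg markers (CD4 SP). CD73+ Treg were the cells carrying that population's hashtag outside transcriptional cluster 9 of the deposited metadata, and CD4 SP were all cells of the CD4SP hashtag. Cells with exactly 1 productive TCRα chain were used. This gave 823 of 1865 CD73+ Treg (44.1%) and 1849 of 2436 CD4 SP cells (75.9%), together 2672 of the 6982 such cells of the study and of its 12208 cells. All populations came from 1 pool of thymocytes of 8 female mice (strain background C56Bl/6 in the labels) aged 7 to 12 weeks. The mice carried a transgenic TCRβ chain (TCliβ), TCRα+/- and a Foxp3-GFP reporter. Every population was sorted for surface Vα2, and the thymus was depleted of CD8+ cells before both sorts. The labels give 1 gate for all libraries, CD4+ and negative for CD8, CD73, CD25 and FOXP3, which can describe only CD4 SP. The gate of CD73+ Treg is not given in the sources used here beyond its name. There was 1 pool per side, so no difference below has a replicate spread or a test, and the labels do not say which mouse a cell came from. Cells of 1 rearrangement in 1 mouse and the same rearrangement made anew in several mice cannot be told apart. Parentheses after a share hold its exact Clopper-Pearson 95% interval, and a ratio of shares has a conditional binomial 95% interval. Both cover counting error only.

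The TCRα chain is made by joining a V segment (TRAV) to a J segment (TRAJ), with bases trimmed from the ends and others added between them without a template. The join encodes the third complementarity-determining region (CDR3), which lies over the peptide in the complex of peptide and MHC. Thymocytes whose receptor binds self peptide strongly can be diverted to the Treg lineage, whereas conventional CD4 cells are selected on weaker binding. A transgenic β chain narrows the variety of the receptor, so that the α chain carries more of it than in other mice. CD73 is an ecto-enzyme that makes adenosine and marks thymic Treg that have matured or have come back from the periphery.

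Germline ends from which frequent CDR3 were built are shown first. Several CDR3 with large differences in cell number between the populations were built from them. The TRAV14 genes, which encode Vα2, end in the same bases from the conserved cysteine on. The J segments are given over their full length on the GRCm38 build, plus strand, with the part inside the CDR3 in capitals. TRAJ7 is at chr14:54211470-54211528, TRAJ23 at chr14:54196081-54196140, TRAJ13 at chr14:54205741-54205797 and TRAJ22 at chr14:54197248-54197307, all upstream of the constant gene Trac at chr14:54220521-54224206.
TRAV14 end: tgtgcagcaagtg
TRAJ7: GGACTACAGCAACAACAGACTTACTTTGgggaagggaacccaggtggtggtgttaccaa
TRAJ23: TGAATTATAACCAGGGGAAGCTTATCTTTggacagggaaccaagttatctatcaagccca
TRAJ13: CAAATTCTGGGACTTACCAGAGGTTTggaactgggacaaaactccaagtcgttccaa
TRAJ22: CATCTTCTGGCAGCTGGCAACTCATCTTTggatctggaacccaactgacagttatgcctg

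The most frequent nucleotide sequences of CDR3 whose shares differed between the populations follow, with bases found in neither germline end in capitals.
CAASAGYSNNRLTL, 30 CD73+ Treg cells: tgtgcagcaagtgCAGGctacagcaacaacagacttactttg
CAASAGYSNNRLTL, 16 further cells: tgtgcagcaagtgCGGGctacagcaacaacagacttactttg
CAASADYSNNRLTL, 31 CD73+ Treg cells with TRAV14D-3-DV8: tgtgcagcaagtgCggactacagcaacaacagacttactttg
CAASADYSNNRLTL, 19 further cells: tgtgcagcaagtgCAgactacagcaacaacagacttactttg
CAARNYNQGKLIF, in both populations: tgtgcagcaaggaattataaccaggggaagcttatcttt
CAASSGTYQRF, in both populations: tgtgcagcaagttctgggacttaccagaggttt
Leading TRAJ13 CDR3, the most frequent CDR3 of CD4 SP: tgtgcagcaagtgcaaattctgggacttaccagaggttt
Leading TRAJ12 CDR3, with TRAV14N-2 in 20 CD4 SP and 2 CD73+ Treg cells: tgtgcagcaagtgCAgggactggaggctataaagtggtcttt
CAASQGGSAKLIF, in CD4 SP: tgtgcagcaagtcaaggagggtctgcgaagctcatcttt
Leading TRAJ32 CDR3 of CD4 SP, with TRAV14-2 in 6 cells: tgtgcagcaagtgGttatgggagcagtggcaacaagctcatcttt
Leading TRAJ22 CDR3 of CD73+ Treg: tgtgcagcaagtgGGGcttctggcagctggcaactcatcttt
The TRAJ7 sequences held bases found in neither germline end. Whether such bases were added without a template was not tested. The joins shown for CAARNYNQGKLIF, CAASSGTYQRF, the leading TRAJ13 CDR3 and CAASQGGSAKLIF could be read from the germline ends alone.

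The α chain rested on a median of 19 UMIs in each population. The median cell had 2984 RNA UMIs in CD73+ Treg (quartiles 2355 to 4118) and 2735 in CD4 SP (quartiles 2255 to 3342), so CD73+ Treg cells were somewhat deeper. Summed UMIs were 2941179 and 5484424. A β contig was found in 23.2% and 24.3% of cells. Of these 191 CD73+ Treg and 450 CD4 SP cells, 144 and 327 had a contig of TRBV19, the V gene of the transgenic chain, and the others had contigs of other TRBV genes only. Whether those cells also carried the transgenic chain was not tested. No barcode occurred more than 1 time. The share of cells with exactly 1 α chain was lower in CD73+ Treg, since 1011 CD73+ Treg and 499 CD4 SP cells had none, and 31 and 88 cells with 2 α chains were left out. Whether the missing chains would change the shares below was not tested. A CDR3 with 0 cells entered ratios at a floor of 3 cells, which is 0.365% of CD73+ Treg and 0.162% of CD4 SP. The exact upper limits of a share with 0 cells are 0.447% and 0.199%. The gene rows of the expression matrix carry no names, so neither population was checked by Foxp3, Nt5e (CD73) or other markers.

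TRAJ use differed mostly by lower shares in CD73+ Treg. Of 40 TRAJ segments with at least 10 cells over both populations, 3 (7.5%) were at least 2-fold more frequent in CD73+ Treg and 11 (27.5%) at least 2-fold more frequent in CD4 SP. The intervals of the shares lay apart for 11 segments (27.5%). Of these, TRAJ7, TRAJ22 and TRAJ23 were higher in CD73+ Treg, and TRAJ56, TRAJ5, TRAJ17, TRAJ57, TRAJ39, TRAJ32, TRAJ12 and TRAJ13 were lower. The other segments past 2-fold, among them TRAJ16 (6 and 6 cells) and TRAJ48 (8 and 7 cells) on the CD73+ Treg side, had overlapping intervals.

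**Figure D1:**
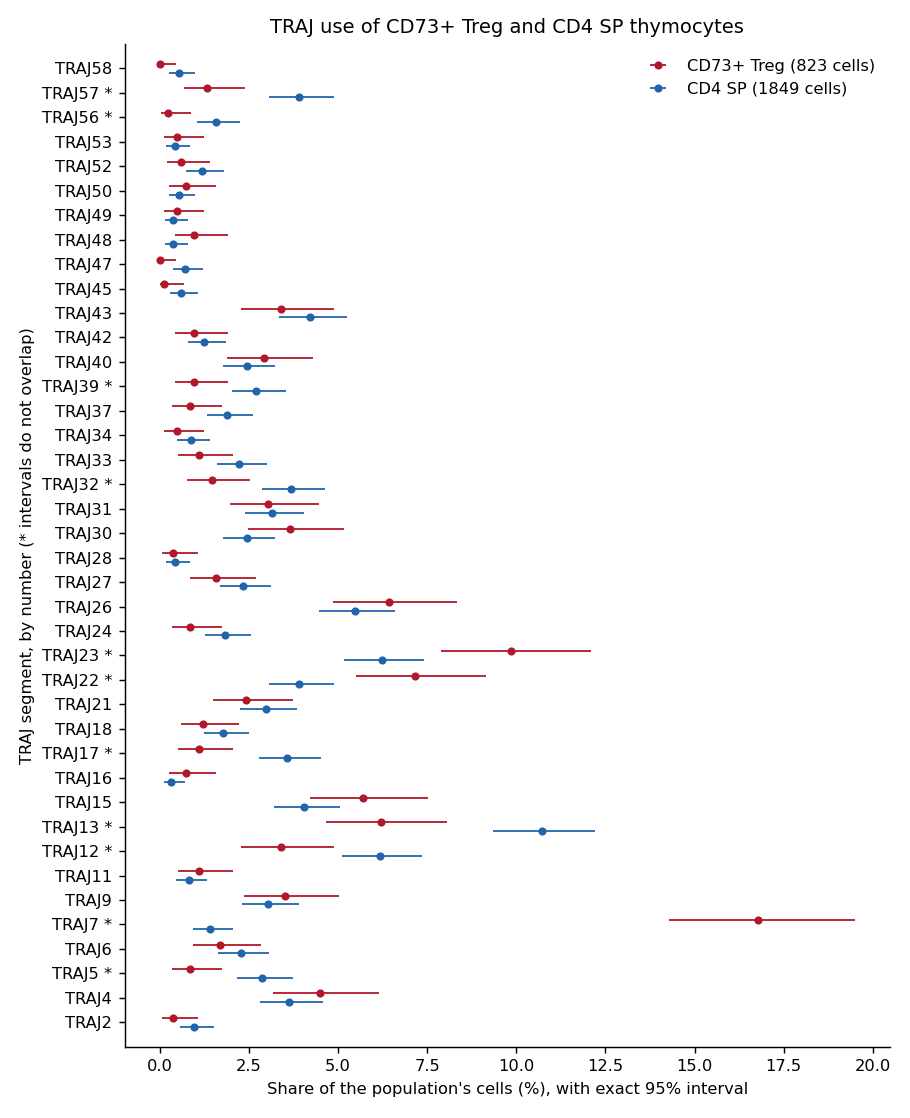
Share of cells (percent) using each TRAJ segment in CD73+ Treg and CD4 SP, with exact 95% intervals that cover counting error only. TRAJ7 stands at 16.8% of CD73+ Treg and 1.41% of CD4 SP cells, and most other segments have overlapping intervals.

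TRAJ7 was carried by 138 CD73+ Treg cells (16.8%, 14.3 to 19.5) and 26 CD4 SP cells (1.41%, 0.921 to 2.05), a ratio of 11.9 (7.80 to 18.9). These cells held 8 different CDR3 in CD73+ Treg and 17 in CD4 SP, so the share of different CDR3 that used TRAJ7 was 1.69% and 1.81%. By rearrangement, a CDR3 nucleotide sequence with its V and J gene, TRAJ7 made up 20 of 595 (3.36%) and 20 of 1298 (1.54%), a ratio of 2.18 (1.11 to 4.27), while the intervals of the 2 shares overlapped. The excess of TRAJ7 was thus large by cell, smaller by rearrangement and not seen by different CDR3. For TRAJ23 the intervals were apart by cell only, with 81 cells (9.84%) against 115 (6.22%) but 23 different CDR3 (4.85%) against 54 (5.76%) and 41 rearrangements (6.89%) against 79 (6.09%). Without the 3 most frequent CDR3 of each population the direction turned for both, with log2 ratios of CD73+ Treg over CD4 SP of -0.53 for TRAJ7 and -0.33 for TRAJ23.

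TRAJ22 differed in the number of sequences. It was carried by 59 CD73+ Treg cells (7.17%, 5.50 to 9.15) and 72 CD4 SP cells (3.89%, 3.06 to 4.88), a ratio of 1.84 (1.28 to 2.63). Counted by different CDR3 it was 40 of 474 (8.44%) against 35 of 937 (3.74%), a ratio of 2.26 (1.40 to 3.66). It was the only TRAJ whose intervals lay apart by different CDR3 as well as by cell.

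Among the segments lower in CD73+ Treg, TRAJ13 was carried by 51 cells (6.20%, 4.65 to 8.07) against 198 CD4 SP cells (10.7%, 9.34 to 12.2). TRAJ12 was carried by 28 against 114 cells. Both were lower only by cell. By different CDR3, TRAJ13 stood at 5.27% and 3.95% and TRAJ12 at 17 of 474 and 29 of 937, with overlapping intervals. Without the 3 most frequent CDR3 of each population TRAJ13 was higher in CD73+ Treg, by 0.54 on the log2 scale. The remaining 6 were lower by cell and, with overlapping intervals, by different CDR3. They had ratios of CD4 SP over CD73+ Treg per cell from 2.52 for TRAJ32 (1.35 to 5.12) to 6.45 for TRAJ56 (1.63 to 55.8; 2 and 29 cells). TRAJ57, the TRAJ farthest from Trac among them, had 11 and 72 cells, and 33 of the 72 carried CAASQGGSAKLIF. TRAJ39 had 7 and 44 different rearrangements, and its intervals were also apart in that count.

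The α locus rearranges in rounds that start at the TRAJ segments near the TRAV genes, which have the high numbers, and move toward Trac. TRAJ40 and higher held 12.6% of CD73+ Treg cells (10.4 to 15.1) against 18.3% in CD4 SP (16.5 to 20.1). By different CDR3 the shares were 17.3% and 21.0% with overlapping intervals. Without the 3 most frequent CDR3 of each population they were 16.4% and 18.6%, again overlapping. The intervals were thus apart only by cell and with the frequent CDR3 counted in.

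Nearly all cells used a TRAV14 gene, as the Vα2 sort required. TRAV14 lies in the mouse genome in original, D and N copies that differ from each other at 0 to 20 of the last 270 bases before the join. TRAV14D-1 and TRAV14N-1 are identical there, as are TRAV14D-2 and TRAV14N-2, so the deposited assignment between them is uncertain. Of 8 TRAV genes with at least 10 cells, 0 (0%) were at least 2-fold more frequent in CD73+ Treg and 2 (25%) in CD4 SP, and intervals were apart for 4 (50%). TRAV14-3 was carried by 21 CD73+ Treg (2.55%) and 130 CD4 SP cells (7.03%), a 2.76-fold lower share (1.73 to 4.60). TRAV14D-2 had 12 and 68 cells and TRAV14N-2 had 58 (7.05%) and 225 (12.2%). TRAV14D-3-DV8 was the most used gene on both sides, with 269 CD73+ Treg (32.7%) and 478 CD4 SP cells (25.9%). With copies of identical bases merged, 1 gene was past 2-fold. By different CDR3 no interval was apart, and TRAV14D-3-DV8 stood at 24.4% and 25.4%.

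A productive α chain outside TRAV14 was the only one found in 17 CD73+ Treg (2.07%, 1.21 to 3.29) and 4 CD4 SP cells (0.216%, 0.0590 to 0.553). The 17 cells held 17 different CDR3 over 12 TRAV genes, with 5 to 29 UMIs each, so no single clone made up the difference. The intervals were apart by cell, by CDR3 and by rearrangement. Whether these cells held a further TRAV14 chain that was not recovered was not tested.

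CD73+ Treg and CD4 SP had few CDR3 in common. There were 474 different CDR3 in CD73+ Treg and 937 in CD4 SP, and 99 were in both, 20.9% of the first and 10.6% of the second. Cells with one of these 99 made up 28.8% of CD73+ Treg (25.7 to 32.0) and 29.1% of CD4 SP (27.0 to 31.2). With CD4 SP reduced to 823 cells by calculation, 69.2 shared CDR3 would be expected, 14.6% and 13.8% of each side. Morisita's index, which is 0 without overlap and near 1 for draws from 1 repertoire, was 0.116 (0.0761 to 0.155 from counting error). It was 0.327 without the 3 most frequent CDR3 of each population and 0.405 without the 10 most frequent. The index was thus still far from 1 without the top sequences, and leaving out sequences that are frequent on 1 side raises it by construction.

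CDR3 of many cells were found on the other side more often than CDR3 of 1 cell. Of the 390 CDR3 in 1 CD73+ Treg cell, 61 (15.6%) were found in CD4 SP. Of the 12 in at least 5 CD73+ Treg cells, 6 (50%, 21.1 to 78.9) were. In the other direction, 42 of 710 CDR3 in 1 CD4 SP cell (5.92%) and 30 of 60 in at least 5 (50%, 36.8 to 63.2) were found in CD73+ Treg. Only 4 CDR3 reached at least 5 cells on both sides, and 6 CDR3 with at least 5 CD73+ Treg cells and 30 with at least 5 CD4 SP cells were not seen in the other population.

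CD73+ Treg had a steeper top and somewhat fewer different CDR3 at equal cell number, an order that turned with the top 3 left out. The 3 most frequent CDR3 held 22.1% of CD73+ Treg cells (19.3 to 25.1) against 10.5% in CD4 SP (9.13 to 12.0). At the same time, 47.4% of CD73+ Treg cells (43.9 to 50.9) and 38.4% of CD4 SP cells (36.2 to 40.7) had a CDR3 seen in no other cell of their population, a share that depends on cell number. At 823 cells each, 474 different CDR3 were observed in CD73+ Treg and 501.6 expected in CD4 SP. At 400 cells the expected numbers were 258.8 and 280.3. Without the 3 most frequent CDR3 the order turned, with 317 in CD73+ Treg and 304.1 in CD4 SP. This cut was chosen after seeing the data and removed unlike shares, 22.1% of CD73+ Treg and 10.5% of CD4 SP cells. CDR3 of 10 or more cells numbered 4 in CD73+ Treg and 23 in CD4 SP, so most of those of CD4 SP stayed in. The expected numbers have no interval, and whether the order holds at other cuts was not tested.

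**Figure D2:**
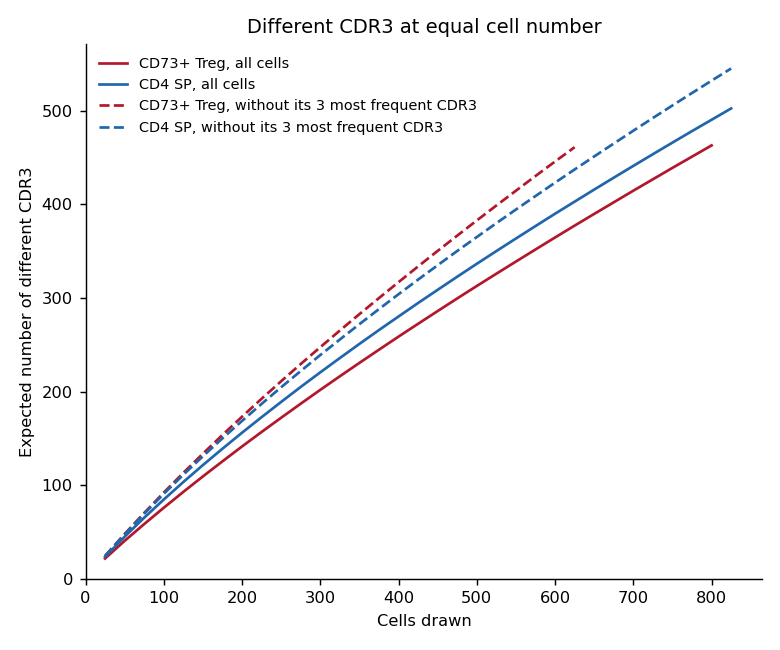
Expected number of different CDR3 against the number of cells drawn, by calculation from the cell counts, for each population with all CDR3 and without its 3 most frequent. At 400 cells CD73+ Treg lie below CD4 SP with all CDR3 (258.8 against 280.3) and above it without the top 3 (317 against 304.1).

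Of the 34 CDR3 with at least 10 cells over both populations, 7 (20.6%) were at least 2-fold more frequent in CD73+ Treg and 15 (44.1%) in CD4 SP. Of these 34, 12 were not seen in CD73+ Treg and 2 were not seen in CD4 SP. Both of the latter use TRAJ7.

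**Figure D3:**
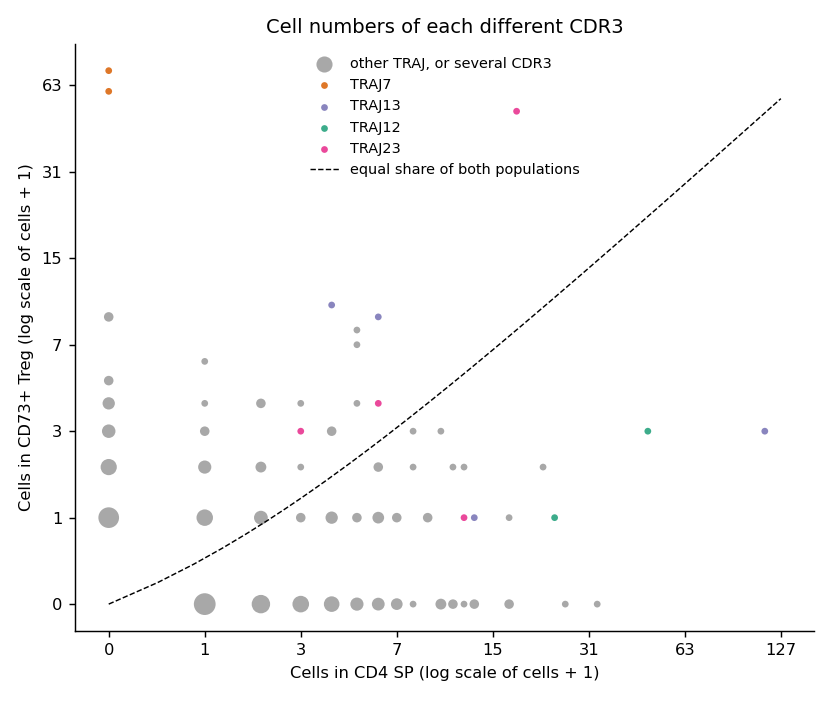
Number of cells of each CDR3 in CD73+ Treg (vertical) against CD4 SP (horizontal), both on a log scale of cells plus 1, each point standing for the CDR3 with the same pair of cell numbers and colour for the TRAJ segment. CAASAGYSNNRLTL (71 cells) and CAASADYSNNRLTL (60 cells) lie at 0 on the CD4 SP axis, and the leading TRAJ13 CDR3 lies at 3 CD73+ Treg and 113 CD4 SP cells, far below the dashed line of equal shares.

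CAASAGYSNNRLTL was the most frequent CDR3 of CD73+ Treg, with 71 of 823 cells (8.63%, 6.80 to 10.8) and 0 of 1849 CD4 SP cells, at least 53.2-fold higher against the floor of 3 cells. CAASADYSNNRLTL followed with 60 cells (7.29%, 5.61 to 9.29) and 0 CD4 SP cells, at least 44.9-fold higher. The pair differs by G6D, with positions counted from 1 at the first cysteine of the CDR3. Aspartate is what the germline start of TRAJ7 encodes there once 1 base is added, whereas the glycine sequences carried 4 or 5 bases found in neither germline end. CAASAGYSNNRLTL was made by 7 rearrangements, all with TRAV14D-3-DV8, and CAASADYSNNRLTL by 6, with 59 of 60 cells on TRAV14D-3-DV8. Each of these CDR3 was thus reached by several joins on the same V gene.

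Apart from each other, close relatives of the pair were rare in CD73+ Treg and CD4 SP. Sequences 1 substitution away, by S4G from CAASAGYSNNRLTL and by A5L, A5S and A5Y from CAASADYSNNRLTL, were each carried by 1 CD73+ Treg cell. In CD4 SP, 1 cell each carried A5K from CAASAGYSNNRLTL and A5S and A5W from CAASADYSNNRLTL. Over the other sorted populations together, A5L and A5S were carried by 7 cells each and the other relatives named here by 0. The 26 TRAJ7 cells of CD4 SP were led by CAADYSNNRLTL, which is 12 residues long, with 10 cells, all on TRAV14D-3-DV8 and from 4 rearrangements. It was carried by 0 CD73+ Treg cells. The same V and J gene thus gave the leading TRAJ7 sequences of both populations, 14 residues long in CD73+ Treg and 12 in CD4 SP.

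In the other populations CAASAGYSNNRLTL was carried by 24 CD25+ Treg progenitor cells (CD25+ TRP, 1.35%), 1 Foxp3lo progenitor cell (Foxp3lo TRP), 2 CD73- Treg cells and 1 CD4+CD8+ (DP) cell. CAASADYSNNRLTL was carried by 27 CD25+ TRP (1.51%), 7 Foxp3lo TRP (0.871%), 8 CD73- Treg (3.59%) and 2 DP cells, and both DP cells used TRAV14N-1. Of the CD73+ hashtag cells in cluster 9, left out of the comparison, 1 of 234 carried CAASAGYSNNRLTL and 0 carried CAASADYSNNRLTL. CD73+ Treg had the largest share of both sequences among the sorted populations, though for CAASADYSNNRLTL its interval overlapped that of CD73- Treg (1.56 to 6.95).

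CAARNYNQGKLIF, on TRAJ23, was the only CDR3 among the 10 most frequent of both sides. It was carried by 51 CD73+ Treg cells (6.20%, 4.65 to 8.07) and 18 CD4 SP cells (0.974%, 0.578 to 1.53), a ratio of 6.37 (3.66 to 11.6), and ranked 3 and 7. It came from 13 rearrangements in CD73+ Treg and 7 in CD4 SP, of which 3 were in both. The V gene separated the sides although the protein sequence of the CDR3 was the same. TRAV14-2 was used by 42 of 51 CD73+ Treg cells (82.4%, 69.1 to 91.6) and 1 of 18 CD4 SP cells (5.56%). TRAV14N-3 was used by 5 CD73+ Treg cells and 15 CD4 SP cells (83.3%, 58.6 to 96.4). These V genes differ at 14 of the last 270 bases.

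The split was also there for a single nucleotide sequence. The join without added bases, shown above, was found with TRAV14-2 in 25 CD73+ Treg and 0 CD4 SP cells and with TRAV14N-3 in 3 CD73+ Treg and 8 CD4 SP cells. In CD25+ TRP, 19 of 38 cells with this CDR3 used TRAV14-2 and 18 TRAV14N-3. In Foxp3lo TRP the numbers were 5 and 14 of 25, with 6 on TRAV14N-2. In CD73- Treg 2 of 5 used TRAV14-2 and 3 TRAV14N-2.

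**Figure D4:**
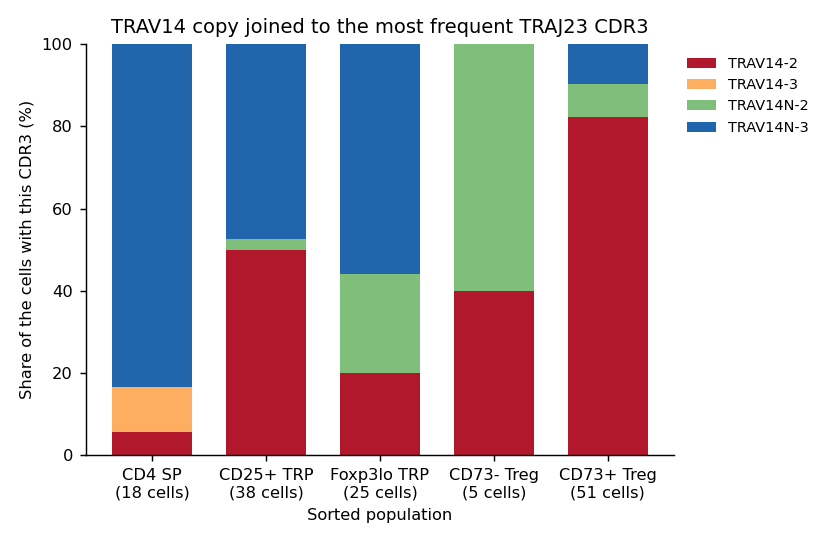
Share (percent) of the cells carrying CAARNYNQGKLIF that used each TRAV14 gene, as stacked bars for 5 sorted populations. TRAV14-2 holds 42 of 51 CD73+ Treg cells and TRAV14N-3 holds 15 of 18 CD4 SP cells, with CD25+ TRP at 19 and 18 of 38.

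The V gene was compared in the same way for the 15 CDR3 with at least 3 cells on each side. A pair of CD73+ Treg cells with the same CDR3 had the same V gene in 74.0% of pairs on average and a pair of CD4 SP cells in 54.1%. A pair with 1 cell from each side had it in 31.5% (range 0% to 75%). The value between sides was below both values within sides for 8 of the 15 CDR3. It was above that within CD4 SP for 6, among them the leading TRAJ12 CDR3 (75% against 57.7%), the leading TRAJ13 CDR3 (45.1% against 37.1%) and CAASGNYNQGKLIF (66.7% against 46.7%). It was above that within CD73+ Treg for 2, of which a TRAJ39 sequence (37.5%) was above both (33.3% and 21.4%). The V gene therefore did not separate the sides for every shared CDR3. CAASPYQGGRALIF, on TRAJ15, was at 0% between sides, with 6 of 7 CD73+ Treg cells on TRAV14-1 and 5 of 5 CD4 SP cells on TRAV14D-3-DV8. These are few cells, and cells of 1 rearrangement share their V gene by definition. TRAV14D-2 and TRAV14N-2 were counted as different V genes here, although their assignment is uncertain. The leading TRAJ13 CDR3 had 13 and 45 CD4 SP cells on them, which lowers the value within CD4 SP. Values with these copies merged were not taken.

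The remaining frequent CDR3 of CD73+ Treg had 6 to 10 cells each. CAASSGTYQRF (10 and 4 cells, ratio 5.62, 1.62 to 24.5) and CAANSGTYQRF (9 and 6 cells, ratio 3.37, 1.07 to 11.5) are TRAJ13 sequences of 11 residues. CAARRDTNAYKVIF, on TRAJ30 and always TRAV14-1, and the leading TRAJ22 CDR3 each had 9 CD73+ Treg cells from 5 rearrangements and 0 CD4 SP cells, at least 6.74-fold higher. A TRAJ32 sequence, other than the one shown above, had 8 and 5 cells, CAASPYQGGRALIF 7 and 5, and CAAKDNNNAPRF 6 and 1 (ratio 13.5, 1.64 to 620). Each of these 7 was made by at least 3 rearrangements in CD73+ Treg, which for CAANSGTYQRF were 1 nucleotide sequence on 3 V genes.

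The leading TRAJ13 CDR3 headed CD4 SP, with 113 cells (6.11%, 5.06 to 7.30) against 3 CD73+ Treg cells (0.365%, 0.0752 to 1.06), a 16.8-fold lower share (5.59 to 82.5). In CD4 SP it came from 13 rearrangements, and 102 of the 113 cells, like all 3 CD73+ Treg cells, carried the germline join shown above. Sequences 1 substitution away numbered 15, of which 13 were in CD4 SP with 47 cells and 6 in CD73+ Treg with 7 cells. The CDR3 was also present in CD25+ TRP (60 cells, 3.37%), Foxp3lo TRP (38 cells, 4.73%) and DP (11 cells), and in 1 CD73- Treg cell. CD73+ Treg therefore held less of this sequence than either progenitor population.

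The leading TRAJ12 CDR3 was carried by 48 CD4 SP and 3 CD73+ Treg cells, a 7.12-fold lower share (2.30 to 35.8). A sequence that differs from it by G6Q, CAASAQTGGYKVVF, went the other way with 5 CD73+ Treg and 0 CD4 SP cells. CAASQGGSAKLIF, on TRAJ57, had 33 CD4 SP cells, 27 of them of a single TRAV14-3 join, and 0 CD73+ Treg cells, at least 4.90-fold lower. The leading TRAJ32 CDR3 of CD4 SP had 26 and 0 cells, at least 3.86-fold lower.

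The other frequent CDR3 of CD4 SP lay mostly on further J segments. A TRAJ12 sequence that differs from the leading one by A5G had 24 CD4 SP and 1 CD73+ Treg cells, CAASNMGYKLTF 22 and 2, and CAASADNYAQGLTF 17 and 1. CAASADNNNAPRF, on TRAJ43, and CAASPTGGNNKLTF, on TRAJ56, had 17 and 0 cells each, at least 2.52-fold lower. None of the 10 most frequent CDR3 of CD4 SP other than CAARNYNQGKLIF had more than 3 CD73+ Treg cells.

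Within TRAJ13 the populations differed in CDR3 length, a comparison chosen after the values were seen. CDR3 of 11 residues made up 33 of 51 TRAJ13 cells of CD73+ Treg (64.7%, 50.1 to 77.6; 10 different CDR3) and 13 of 198 of CD4 SP (6.57%, 3.54 to 11.0; 4 different CDR3). CDR3 of 13 residues made up 11 cells (21.6%, 11.3 to 35.3) and 171 cells (86.4%, 80.8 to 90.8). In CD73+ Treg the 11-residue cells were spread over sequences such as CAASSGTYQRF and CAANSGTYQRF, whereas the leading TRAJ13 CDR3 alone held 113 of the 171 CD4 SP cells of 13 residues.

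Over all J segments, CDR3 of CD73+ Treg were slightly shorter. The median was 13 residues on both sides. CDR3 of at most 12 residues held 21.3% of the CD73+ Treg cells (18.5 to 24.2) against 16.0% in CD4 SP (14.4 to 17.8). They were 25.9% and 18.9% of different CDR3. CDR3 of at least 15 residues made up 8.02% and 14.7% of cells and 12.0% (9.24 to 15.3) and 19.3% (16.8 to 22.0) of different CDR3. The difference in length was thus also present when each sequence was counted 1 time. Among 17 TRAJ with at least 10 different CDR3 on each side, mean length was lower in CD73+ Treg in 13, by a median of 0.25 residues over the 17.

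The residue after the germline Cys-Ala-Ala, position 4, also differed. Arginine or lysine, both positively charged, stood there in 22.6% of CD73+ Treg cells (19.8 to 25.6) against 11.1% in CD4 SP (9.74 to 12.7). By different CDR3 the shares were 20.3% (16.7 to 24.2) and 14.1% (11.9 to 16.5). Serine, which the germline V end encodes, stood there in 59.4% and 72.3% of cells and in 54.2% (49.6 to 58.8) and 64.4% (61.2 to 67.4) of different CDR3. By different CDR3, arginine or lysine at position 4 was at 15.5% in DP, 18.3% in CD25+ TRP, 19.7% in Foxp3lo TRP and 24.7% in CD73- Treg, so CD4 SP had the lowest and the 2 Treg populations the highest values, with overlapping intervals between neighbours in this order. The share was higher in CD73+ Treg in 11 of the 17 TRAJ and lower in 6, with a median difference of 3.33 percentage points. The largest differences were those of TRAJ43 (29.2 percentage points, 15 different CDR3 in CD73+ Treg) and TRAJ4 (26.7, 31 different CDR3). CDR3 with a net negative charge held 4.50% and 10.4% of cells, with overlapping intervals by different CDR3 (5.91% and 8.32%). Aromatic residues were also counted in the middle of the CDR3, without its first and last 3 residues. They made up a mean of 10.7% (SD 8.59) over the different CDR3 of CD73+ Treg and 8.24% (SD 7.86) in CD4 SP. The mean was 10.47% in CD73- Treg, 9.19% in CD25+ TRP, 9.17% in Foxp3lo TRP and 7.51% in DP. Within J segments the difference was smaller. Among the 17 TRAJ the aromatic share was higher in CD73+ Treg in 10 and lower in 6, with a median difference of 0.62 percentage points.

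The number of rearrangements per CDR3 was 1.26 in CD73+ Treg (Poisson interval 1.16 to 1.36) and 1.39 in CD4 SP (1.31 to 1.46), and CD4 SP would have 1.29 at 823 cells. By nucleotide sequence alone the values were 1.20 and 1.26, and 1.20 for CD4 SP at 823 cells. CDR3 with more than 1 rearrangement held 47.0% of CD73+ Treg (43.6 to 50.5) and 56.4% of CD4 SP cells (54.1 to 58.6), again without the adjustment for cell number. In CDR3 with at least 5 cells, 5 cells drawn would hold on average 3.41 rearrangements in CD73+ Treg (12 CDR3) and 2.98 in CD4 SP (60 CDR3). The frequent CDR3 of CD73+ Treg were thus not made up of fewer rearrangements than those of CD4 SP, at these numbers of sequences.

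Sharing was lower at the level of the join. There were 595 rearrangements in CD73+ Treg and 1298 in CD4 SP, and 47 were in both (7.90% and 3.62%). They held 9.60% of CD73+ Treg and 9.68% of CD4 SP cells. Of the 99 shared CDR3, 73 had a nucleotide sequence found on both sides, and 41 (41.4%) had one with the same V and J gene. The nucleotide join of a shared CDR3 was thus mostly found on both sides, and the V gene joined to it less often. TRAV14 copies of identical bases were counted as different V genes in this comparison.

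Shared CDR3 carried fewer bases found in neither germline end. Per rearrangement the mean was 3.08 (SD 2.10) in CD73+ Treg and 3.06 (SD 2.01) in CD4 SP. For CDR3 found in both it was 1.99 in CD73+ Treg and 2.09 in CD4 SP, and for those found on 1 side only 3.49 and 3.28. Joins without any such base made up 20.9% and 17.4% of the rearrangements of shared CDR3 and 8.27% and 7.95% of the others. Shared and unshared CDR3 thus differed in this number by more than the 2 populations did.

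CDR3 seen on 1 side only were also looked for in the other populations. Of 375 CDR3 found only in CD73+ Treg, 29.6% were in at least 1 of DP, CD25+ TRP, Foxp3lo TRP or CD73- Treg. Of 838 found only in CD4 SP, 37.8% were, and of the 99 in both, 84.8%. The sets are not alike, since the first was absent from 1849 CD4 SP cells and the second from 823 CD73+ Treg cells. CDR3 found in both were also more often CDR3 of many cells, as given above. CD25+ TRP held 18.4%, 25.9% and 76.8% of the respective sets, and CD73- Treg, with 223 cells, held 5.87%, 2.98% and 23.2%. The intervals of the first and second set overlapped for CD73- Treg (3.71 to 8.75 and 1.94 to 4.37), and among CDR3 seen in a single cell its shares were 2.74% and 2.70%. The CD73+ hashtag cells of cluster 9 held 4.53% and 1.79%, also with overlapping intervals. Among CDR3 seen in a single cell, CD25+ TRP held 11.85% of the first and 17.66% of the second set. DP held 9.73% and 11.68% of these and Foxp3lo TRP 5.17% and 8.08%, with overlapping intervals in each population.

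Expression was summed over the cells of each side and compared over 3023 unnamed gene rows of at least 50 CPM (UMIs scaled to a fixed total per side) in either population. Of these, 148 (4.9%) were at least 2-fold higher in CD73+ Treg and 84 (2.78%) in CD4 SP, with a prior of 1 CPM, together 7.67% of rows. The root-mean-square log2 ratio was 0.73, where counting error alone gives 0.11, and 78.1% of rows lay within 0.5 on the log2 scale. The most different row had 340 UMIs in CD73+ Treg and 3 in CD4 SP.

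Summed over cells, the sides stayed apart in expression also among cells with a shared CDR3. Among cells whose CDR3 was found in both populations, CD73+ Treg differed from CD4 SP by a root-mean-square log2 ratio of 0.71. Counting error gives 0.22 there, and 250 of 3105 rows (8.05%) were past 2-fold. Among the other cells the ratio was 0.77, where counting error gives 0.13, and 243 of 3043 rows (7.99%) were past 2-fold. Over all cells the share of such rows was 7.67%. Within CD73+ Treg, cells with shared and unshared CDR3 differed by 0.32, where counting error gives 0.20, and 21 rows (0.721%) were past 2-fold. The 586 unshared cells include the 131 cells of the TRAJ7 pair, CAASAGYSNNRLTL and CAASADYSNNRLTL. The part of the pair in this difference was not tested. Within CD4 SP, cells with shared and unshared CDR3 differed by 0.16, where counting error gives 0.14, and 4 rows (0.137%) were past 2-fold. The side of the sort therefore went with far larger differences than the sharing of the CDR3. The sides were sorted by markers, so a difference in expression between them was given by the design.

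The same was seen cell by cell. Gene rows were chosen in cells outside the comparison, the 1042 CD73+ Treg and 587 CD4 SP cells without exactly 1 productive α chain. Of 3026 rows used there, 131 were at least 2-fold higher in CD73+ Treg and 100 in CD4 SP. In the cells with 1 α chain, 121 of the 131 rows and 63 of the 100 were again at least 2-fold higher on the same side. Only the 131 rows are followed below. The rows were chosen in cells of the same sorts and pool, so a separation of the sides was given in advance. They held a median of 2.43% of a CD73+ Treg cell's UMIs (quartiles 1.98 to 3.03) and 0.597% of a CD4 SP cell's (0.434 to 0.837). The medians were 2.31% and 2.47% for CD73+ Treg cells with shared and unshared CDR3 and 0.594% and 0.599% for CD4 SP cells. The unshared CD73+ Treg cells again include the TRAJ7 pair, whose median was 2.82%. The sides overlapped at the edges, since 226 of 1849 CD4 SP cells (12.2%) were at or above the 5th percentile of CD73+ Treg (1.11%).

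For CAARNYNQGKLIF these rows held a median of 2.48% in the 51 CD73+ Treg cells and 0.647% in the 18 CD4 SP cells (lowest 0.200%, highest 2.48%). In CD25+ TRP cells with this CDR3 the median was 1.44% (1.03% in all of that population), in Foxp3lo TRP 1.92% (1.58%) and in CD73- Treg 2.68% (2.23%, 5 cells with the CDR3). Cells with the same CDR3 were thus spread over the levels of the populations they were sorted into. The 3 CD73+ Treg cells with the leading TRAJ13 CDR3 were at 1.46% to 1.94%, below the lower quartile of all CD73+ Treg (1.98%). The 113 CD4 SP cells with this CDR3 had a median of 0.640% and reached 2.12%, so the 3 cells lay within their range.

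**Figure D5:**
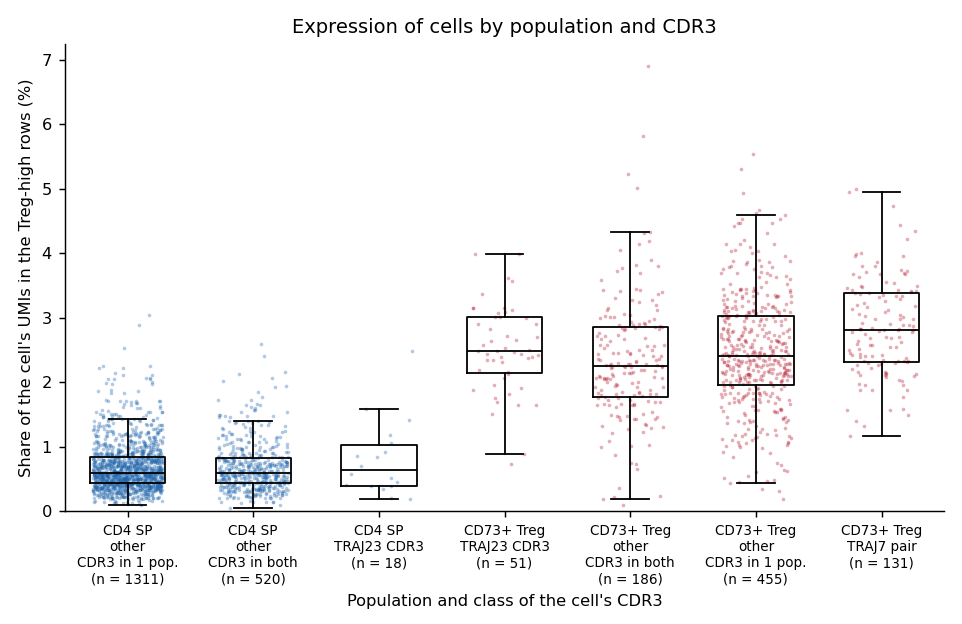
Share of a cell's UMIs (percent) in the 131 gene rows that were at least 2-fold higher in CD73+ Treg among cells outside the comparison, by population and class of CDR3, with the TRAJ23 sequence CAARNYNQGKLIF and the TRAJ7 pair apart. Points are cells, and boxes give the median and quartiles. With these cells counted in, medians are 2.31% and 2.47% in CD73+ Treg with shared and unshared CDR3 and 0.594% and 0.599% in CD4 SP.

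The 131 cells of the TRAJ7 pair stood somewhat apart within CD73+ Treg. Their root-mean-square log2 ratio to the other CD73+ Treg cells was 0.46, where counting error gives 0.22, with 15 rows past 2-fold higher and 35 lower (1.74% together). The 131 gene rows held a median of 2.82% of their UMIs (quartiles 2.32 to 3.38). In the deposited clusters 51.1% of the pair's cells lay in cluster 3 and 30.5% (22.8 to 39.2) in cluster 7. The shares were 44.7% and 13.85% (11.56 to 16.4) of all CD73+ Treg cells, with the pair counted in. They were 42.2% and 8.86% (5.57 to 13.2) of CD73+ Treg cells with a shared CDR3. Median RNA UMIs of the pair's cells were also higher, 4292 for CAASAGYSNNRLTL and 3661 for CAASADYSNNRLTL against 2984 in all CD73+ Treg. The part of this depth in the difference was not tested. Rows that hold transcripts of the receptor itself would differ with the V gene by definition, and which rows these are is not known here.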

How the data were processed

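RNA, hashtag and TCRα libraries of the same cells were made with the 10x 5′ v2 kit according to the labels' protocols. The submitters' processing notes name Cell Ranger 3.1.0, Seurat 3.1.1, mm10 and GRCm38. Which step each tool served, and how doublets were handled, is not stated there. The authors deposited a matrix of UMI counts (14790 gene rows, 164 without a UMI), a matrix on a natural log scale, used only as an alternative, cell metadata with hashtag class and cluster, and a contig table with V gene, J gene, CDR3 and UMI counts.

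Cells were joined by barcode. Shares have exact Clopper-Pearson 95% intervals, a count of 0 was set to a floor of 3 cells in ratios, and values at equal cell number are expectations by calculation. Joins were split against V and J ends of GENCODE M21 (GRCm38), in which all 65 segments were found. Expression was UMI counts summed per side and scaled to total UMIs. edgeR 4.0.16 was used for 1 alternative scaling. Tools were Python 3.11.15, numpy 2.4.6, pandas 2.3.3, scipy 1.17.1, matplotlib 3.10.9 and R 4.3.3. The scripts were tested on simulated data.

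Segments named for their share had at least 10 cells and intervals apart. TRAJ16, TRAJ48, TRAJ4 and TRAJ43 fall outside this rule and were chosen after their values were seen, and other J segments are named with their CDR3. CDR3 named were the 10 most frequent of each side and, among those of at least 10 cells, the 10 largest ratios each way. Relatives by 1 substitution, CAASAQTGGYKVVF and the TRAJ13 lengths were chosen after their values were seen. The members and lists were chosen with earlier results of these data known. Gene rows carry no names, so the planned gene lists and markers were not applied.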

Additional observations from a re-analysis of the deposited data

How the results depend on the processing

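No paired analysis was possible because each side is 1 pool and every library carries replicate number 1 only, so no replicate could be left out either. Over 93 values of the comparison under alternatives, 69 stayed within their counting error or within 1.5 times and 24 moved. These values were not checked for a reversed order of the sides. Over 123 values of the named segments and CDR3, 100 stayed, 13 moved and 10 reversed. Requiring 2 UMIs per α chain and leaving cluster 9 out of both sides are not counted here, since every α chain had at least 2 UMIs and no CD4 SP cell was in cluster 9, so both left the same cells.

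TRAV segments at least 2-fold apart numbered 2. The number was 0 by different CDR3, 0 without the 3 most frequent CDR3 of each side, 1 with cluster 9 included and 1 with identical TRAV14 copies merged. With rearrangements in place of CDR3 as the unit, 11 in place of 22 were at least 2-fold apart, 47 in place of 99 were in both, and Morisita's index was 0.0663 in place of 0.116. The index was 0.327 without the 3 most frequent CDR3 and 0.405 without the 10 most frequent, and the Jaccard index was 0.0755. Rearrangements per CDR3 were 5.42 in CD73+ Treg and 4.32 in CD4 SP for CDR3 of at least 5 cells. This is the reverse of the order over all CDR3 (1.26 and 1.39). By nucleotide sequence alone the value in CD4 SP was 1.26. The share of cells in CDR3 with more than 1 rearrangement was 51.3% in CD4 SP by nucleotide sequence alone and 43.1% in CD73+ Treg with cluster 9. Different CDR3 per cell of CD4 SP were 0.507 over all cells and 0.610 at 823 cells.

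On the log2 scale (CD73+ Treg over CD4 SP), counting each different CDR3 1 time turned TRAJ7 to -0.10, TRAJ23 to -0.25, TRAJ12 to 0.21, TRAJ13 to 0.42 and TRAV14D-3-DV8 to -0.054. Counting each rearrangement 1 time turned TRAV14D-3-DV8 to -0.12 and left TRAJ7 2.18-fold higher in CD73+ Treg. Leaving out the 3 most frequent CDR3 of each side turned TRAJ7 to -0.53, TRAJ23 to -0.33, TRAJ13 to 0.54 and TRAV14D-3-DV8 to -0.28. These alternatives count fewer cells of the frequent CDR3 by construction.

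The root-mean-square log2 expression ratio of 0.73 became 0.59 with a prior of 10 CPM, 0.71 from 20 CPM, 0.71 over all cells, 0.78 with cluster 9, 0.71 without the 5% of cells with the most UMIs and 0.69 from the authors' normalized values. Gene rows past 2-fold numbered 232, 454 from 20 CPM and 1460 without a filter, where more rows were tested. Scaling by TMM gave 153 higher and 73 lower rows and scaling by the median of ratios 155 and 70. A minimum of 5 UMIs per α chain, leaving out the 3 most frequent CDR3 and merging TRAV14 copies were chosen after seeing the data. The number of cells, mainly the 823 CD73+ Treg, limits every share.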
